A study of Mus musculus with 7 samples.

Results

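A cassette exon is an internal exon that a transcript either keeps or leaves out, and one whose length is not a multiple of 3 bases shifts the reading frame downstream of it. Such frame-shifting cassette exons of more than 27 bases were taken from the deposited tables of splicing events, where each had to have coordinates that were unique in the table of each replicate number and present in both. By this rule 4069 exons in 3144 genes were found among 11804 identifiable events of all splicing types. The cells were wild-type cortical neurons of the mouse, cultured from ICR embryos of embryonic day 16 and used on culture day 11. For 10 min they were in a buffer with 50 mM KCl, which depolarizes neurons, or, as the control, in a NaCl buffer without it, and their RNA was collected 24 h later. There were 2 KCl libraries and 2 control libraries, and the labels do not say whether these came from separate cultures, so p-values measure only the spread between the libraries. The comparison addresses whether a brief depolarization is followed by a late difference in splicing.

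A messenger RNA is read in codons of 3 bases. When an exon that is no multiple of this length is skipped, or is added to a transcript that normally lacks it, all codons after it are read in another frame, and a stop codon usually follows soon. A transcript with an early stop can be removed by nonsense-mediated decay, a surveillance pathway coupled to translation, so that such an exon can act as a switch for the amount of a protein as well as for its sequence. Several splicing factors limit their own amounts in this way, and neurons use a frame-shifting exon of Ptbp2 and another of Dlg4 for the timing of these proteins in development. Decay removes one of the forms before it is sequenced, so a read share describes the transcripts that were present and not how often the exon was spliced.

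Sequences were at hand for a few of these exons only, which are examples and not a sample of the class. A total of 15 of the 4069 exons lie whole, with 2 bases on each side, in RefSeq promoter windows of GRCm38.p6 (mm10, as in the files), and all 15 have AG before and GT after the exon on 1 strand, from which their strand was read. They were taken because a window holds them, after the values had been seen, and none is among the leading exons below. Of these, 12 have at least 1 of 3 reading frames without a stop codon inside the exon, and 3 have stop codons in every frame. The first 4 below are shown as exons with an open frame, and the last 2 as exons that hold stops in all frames, by their first 28 bases. Capitals mark the AG before and the GT after the exon.
Hdac4 (chr1:92012669-92012819, minus strand): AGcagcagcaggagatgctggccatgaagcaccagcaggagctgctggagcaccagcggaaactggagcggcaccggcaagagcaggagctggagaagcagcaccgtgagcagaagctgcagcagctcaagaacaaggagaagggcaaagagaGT
Crim1 (chr17:78281246-78281366, plus strand): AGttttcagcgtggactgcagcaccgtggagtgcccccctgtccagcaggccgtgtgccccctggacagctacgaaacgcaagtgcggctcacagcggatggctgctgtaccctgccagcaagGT
Hmgn3 (chr9:83111034-83111106, minus strand): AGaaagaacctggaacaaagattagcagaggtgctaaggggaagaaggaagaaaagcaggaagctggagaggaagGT
Cdk19 (chr10:40454015-40454072, plus strand): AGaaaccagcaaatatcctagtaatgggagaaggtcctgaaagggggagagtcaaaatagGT
Ap1m1 (chr8:72241724-72241938, plus strand): AGgctgtcagagtggaaggcaagtggccag
Usp11 (chrX:20706912-20706982, plus strand): AGataacacatgatcctgtcatccttacca

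These exons differed in how often their reads kept them. The inclusion read share, which is the percentage of an event's reads that come from the form with the exon, is not corrected for the length of each form and is therefore compared between libraries for the same exon. In Hdac4, a class II histone deacetylase, the exon of 151 bases had shares of 92.9% and 92.0% in the KCl libraries and 96.5% and 97.3% in the control libraries. In Hmgn3, a nucleosome-binding protein, the exon of 73 bases had 99.0% and 98.4% in KCl and 94.4% and 96.8% in control. Both KCl libraries were below both control libraries for Hdac4 and above them for Hmgn3. The exon of 121 bases of Crim1, a membrane protein with cysteine-rich repeats, had 44.4% and 55.6% in KCl, from 9 reads in each library, and 84.8% and 73.2% in control, from 33 and 41 reads. The exon of Cdk19, a kinase of the Mediator complex, had 89.5% and 53.3% in KCl and 80.0% and 70.7% in control, so that its KCl libraries lay on both sides of its control libraries. The 3 exons with stops in all frames differed in their shares. The exon of Usp11, a ubiquitin-specific protease, had 2.86% and 0% in KCl and 2.06% and 0.758% in control. Its 0 of 73 reads allows a share of up to 4.11%. This limit, like those given below where a form had 0 reads, is 3 divided by the number of reads. The exon of Ap1m1, a subunit of the clathrin adaptor AP-1, had 0% and 2.16% in KCl and 1.30% and 1.00% in control. The third, a 218-base exon of Gal3st1, a sulfotransferase that makes sulfatide, had 60.8% and 82.6% in KCl and 33.3% and 75.0% in control, from 12 to 79 reads, so its groups overlapped. None of these 7 exons passed the test described below, and the smallest of their adjusted p-values by edgeR's quasi-likelihood test was 0.656.

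Most frame-shifting exons were kept in nearly all reads. Over the 2920 exons with at least 20 reads in each library, the median share was 98.2% in both KCl libraries and 98.2% and 98.0% in the control libraries. A share over 90% was found for 75.0% and 74.9% of them in KCl and for 73.3% in both control libraries. A share of 10 to 90%, where neither form is rare among the reads, was found for 14.8% and 16.03% in KCl and for 17.0% and 17.4% in control. The remaining exons, between 9.04% and 10.2% of them in each library, were under 10%. The KCl libraries thus had slightly more exons near full inclusion and fewer with both forms than either control library, by more than the spread within either group for shares over 90% and by less than the spread within KCl for shares of 10 to 90%.

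The 4069 exons were between 28 and 8104 bases long, with a median of 119 and quartiles of 85 and 163. Those that leave a remainder of 1 base after division by 3 numbered 2052, and those with a remainder of 2 numbered 2017. A gene held at most 6 of them, and 2418 genes held 1. There were 378 exons that overlapped another, so the exons made up 3875 distinct regions. The median exon had between 69 and 86 reads in a library. At the edge of the length rule there were 7 exons of 28 or 29 bases, with median shares of 33.3% and 61.5% in KCl and 28.6% and 27.3% in control. The 32 cassette exons of 26 bases or less that are not multiples of 3 had median shares of 55.8% and 52.4% in KCl and 68.3% and 65.9% in control.

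**Figure D1:**
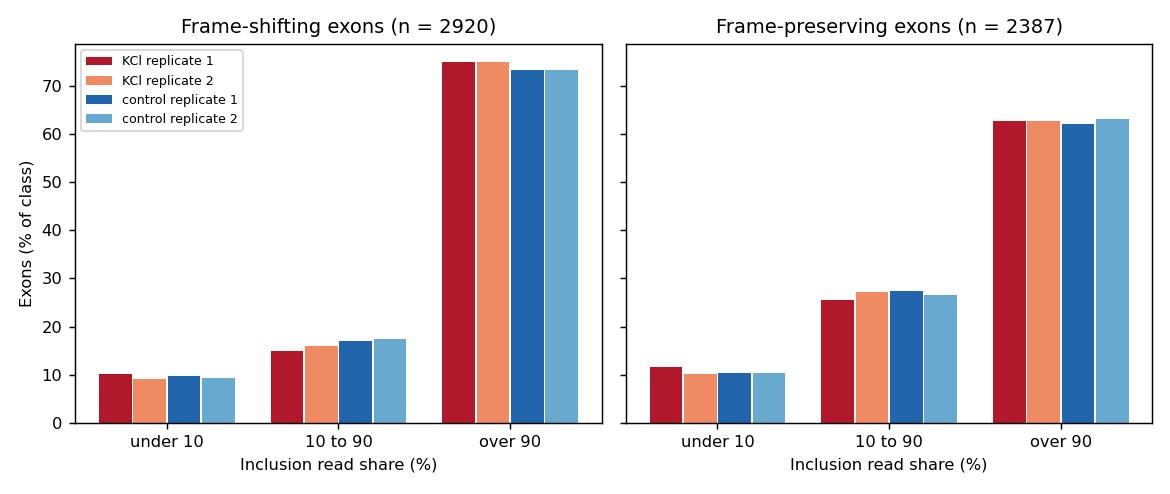
Percent of exons (y axis) with an inclusion read share under 10%, of 10 to 90% and over 90% (x axis) in each library, for frame-shifting exons on the left and frame-preserving exons on the right, over exons with at least 20 reads in each library. Frame-shifting exons had the larger column over 90% (73.3 to 75.0%) and the smaller one at 10 to 90% (14.8 to 17.4%) in all 4 libraries.

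The percentage of exons with both forms was lower for frame-shifting than for frame-preserving cassette exons, whose length is a multiple of 3 bases. Shares of 10 to 90% were found for 14.8% and 16.03% of the frame-shifting exons in KCl and 17.0% and 17.4% in control. Among the 2387 frame-preserving exons over 27 bases, they were found for 25.6% and 27.2% in KCl and 27.4% and 26.6% in control. The first quartile of the share was 87.8 to 90.2% for frame-shifting exons over the 4 libraries and 59.5 to 61.7% for frame-preserving ones. Median lengths were 119 and 114 bases over all exons of the classes. Because the share depends on length, the classes were also set side by side in 6 ranges of length. In exons of 28 to 60 bases, shares of 10 to 90% made up 27.6 to 34.4% of frame-shifting and 40.7 to 48.6% of frame-preserving exons. In exons of 121 to 150 bases, they made up 11.4 to 13.8% of frame-shifting and 17.0 to 18.2% of frame-preserving exons. The frame-shifting percentage was the lower one in 24 of 24 sets of a length range and a library. This is a description of annotated and detected exons, with no test, since exons of 1 library are not replicates.

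**Figure D2:**
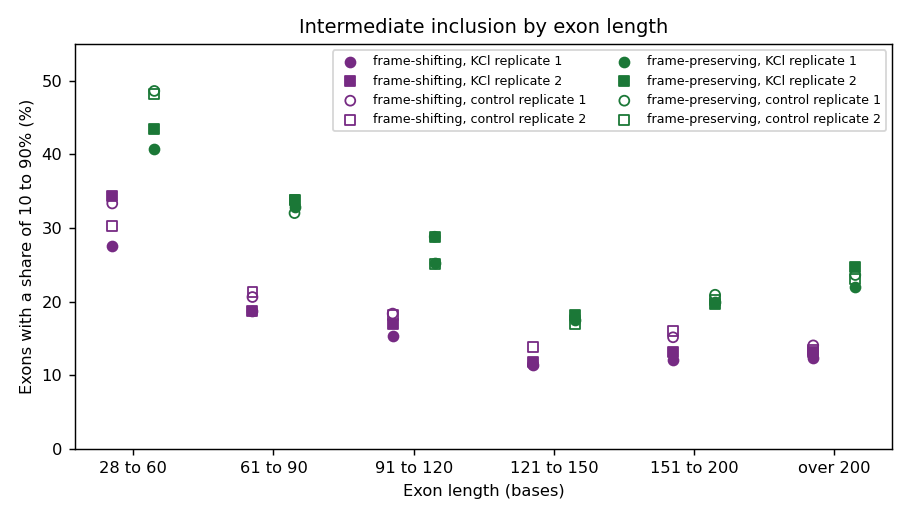
Percent of exons with an inclusion read share of 10 to 90% (y axis) by exon length in bases (x axis), with frame-shifting exons in purple at the left and frame-preserving exons in green at the right of each range. Filled marks are KCl and open marks control, circles replicate 1 and squares replicate 2, and every purple mark lies below the green mark of the same library.

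Before the comparison of KCl with control, the libraries were checked for the cells they hold. Reads assigned to events numbered 3643165 and 4666850 in KCl and 3566066 and 5385345 in control. Of 11 neuron markers, 6 had events, all 6 were lower in KCl, and their summed CPM (reads of an event scaled to the total and the TMM factor of its library) were 350.3 and 1479 in KCl and 4703 and 4384 in control. KCl replicate 1 therefore stood apart even from KCl replicate 2. The 5 measured of 12 oligodendrocyte markers were all higher in KCl and summed to 1315 and 743.0 CPM in KCl and 217.2 and 224.7 CPM in control. The 3 measured of 8 vascular and mesenchymal markers were also all higher in KCl, with 1911 and 1521 CPM in KCl and 295.5 and 340.5 CPM in control, as were 5 of 9 astrocyte markers (2723 and 2078 CPM against 2041 and 1520 CPM) and 4 of 7 progenitor markers (403.1 and 467.4 CPM against 136.1 and 257.5 CPM). Single events made up a large part of some of these sums. An event of Tagln had 1811 and 1445 CPM in KCl and 277.4 and 310.8 CPM in control, most of the vascular and mesenchymal sum. An event of Aldoc had 1775 and 1397 CPM in KCl and 1557 and 1060 CPM in control, most of the astrocyte sum. For Sox10, an event had 678.6 and 271.7 CPM in KCl and 132.7 and 123.3 CPM in control, a large part of the oligodendrocyte sum. Directions can differ between a marker and 1 of its events. Slc1a2 is counted among the higher astrocyte markers, but the event of its 71-base exon was lower in KCl. That event had 169.1 and 168.4 CPM in KCl and 226.8 and 277.6 CPM in control. Of 6 microglia markers none had an event, and no measured marker of the other lists was at 0 in a library. Fewer cells of a type and less RNA per cell cannot be told apart in such bulk libraries. Many splice forms differ between neurons and other cells, and the part that these shifts have in the splicing values below was not tested.

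**Figure D3:**
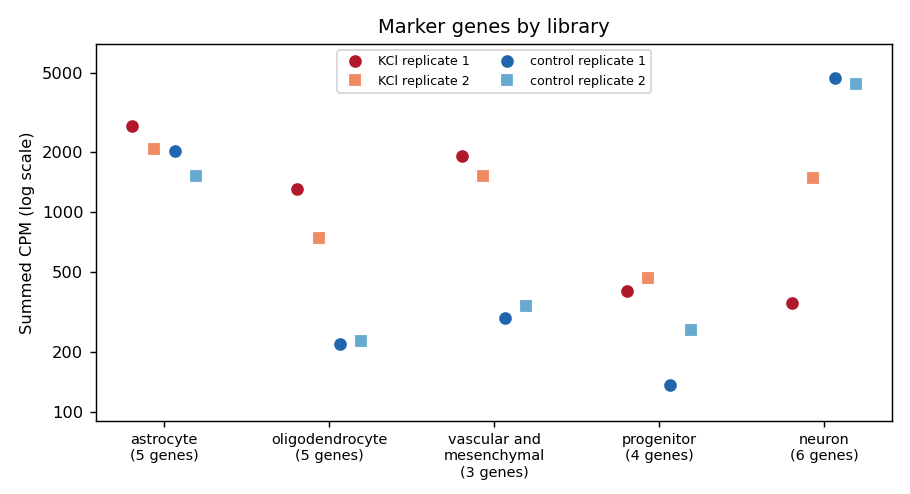
Summed CPM of the measured marker genes (y axis, log scale) by cell type (x axis) in the 2 KCl libraries, drawn left in reds, and the 2 control libraries, drawn right in blues. Neuron markers were at 350.3 and 1479 CPM in KCl and at 4703 and 4384 CPM in control, and the markers of the other 4 types were higher in KCl.

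In KCl, exons of the chromatin protein gene Morf4l2, the synaptic organizer gene Ptprs and the membrane glycoprotein gene Gpm6b had a higher inclusion read share by 32.5 to 39.9 points. Exons of the calcium pump gene Atp2b4, the flippase gene Atp11b and the synaptic exchange factor gene Iqsec2 had a share lower by 47.7 to 52.2 points. None of the 3193 exons that averaged 1 or more reads in both forms passed edgeR's quasi-likelihood test after Benjamini-Hochberg adjustment over all 10079 events tested, where the background was 0.0%, and the smallest adjusted p was 0.0990. DESeq2 and limma called 0 as well. With an added term for the replicate number (replicate block), edgeR called 25 of these exons, where the background was 1.66%. The labels give libraries of the same number no shared source, so that fit was an alternative. In the fit without the block, 297 exons had an unadjusted p under 0.05. This is 9.30% of those tested and close to the background of 9.2% for all events. Of these exons, 176 had a higher share in KCl (5.51% of those tested, background 4.23%) and 121 a lower one (3.79%, background 4.97%). The median log2 odds ratio of inclusion over skipping, KCl over control, was 0.15 over the tested exons and 0.04 over all events. The other 876 exons were not tested, 809 for too few skipping reads and 67 for too few inclusion reads. Leaving out KCl replicate 1, the library with the lowest neuron markers, gave 131 exons at an unadjusted p under 0.05, of which 62.6% were higher in KCl, and leaving out KCl replicate 2, control replicate 1 or control replicate 2 gave 194, 130 and 143.

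Counted without a test, the 2 KCl shares and the 2 control shares did not overlap for 1276 of the 2920 exons with at least 20 reads in each library. This is 43.7%, against a background of 42.3% over all events of that depth. Of these 1276 exons, 731 had the higher shares in KCl and 545 the lower. Over all 4069 exons, the groups did not overlap for 1756, which is 43.2% against a background of 42.2%. Of 1616 tested exons with a remainder of 1 base, 9.34% had an unadjusted p under 0.05 for splicing (82 higher, 69 lower), and of 1577 with a remainder of 2, 9.26% did (94 higher, 52 lower), beside 9.2% of all events.

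The percentage of exons at an unadjusted p under 0.05 was similar for mostly kept, mixed and mostly skipped exons. The background over all events was 9.2%, with 4.23% higher and 4.97% lower in KCl. Among frame-shifting exons with a mean share over 90%, 177 of 1841 tested (9.61%) had an unadjusted p under 0.05. Of these, 109 were higher in KCl (5.92% of those tested) and 68 lower (3.69%). Among those of 10 to 90% there were 94 of 1043 (9.01%), with 54 higher (5.18%) and 40 lower (3.84%). Among those under 10% there were 26 of 309 (8.41%), with 13 each way. Frame-preserving exons of 10 to 90% had 231 of 1283, with 84 higher (6.55% of those tested) and 147 lower (11.46%), both above the background. Over all tested frame-preserving exons the count was 397 of 2789 (14.23%), with 170 higher (6.095%) and 227 lower (8.14%). Cassette exons of up to 27 bases had 69 of 188 (36.7%), with 3 higher (1.596%) and 66 lower (35.11%). The difference between the classes was not tested, since the exons of a library are not independent replicates.

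The 10 leading exons of each direction were those with the smallest unadjusted p among exons with at least 20 reads in each library and groups that do not overlap, all in mm10 coordinates. The 181-base exon of Atp2b4 (chr1:133711642-133711822), which codes for a plasma membrane calcium pump, had shares of 26.4% and 37.3% in the KCl libraries, from 193 and 319 reads, and 87.6% and 80.5% in the control libraries, from 364 and 517 reads. Both control libraries thus kept the exon in most reads and both KCl libraries skipped it in most. The log2 odds ratio was -3.52 (SE 0.66, adjusted p = 0.0990). A version of 191 bases with the same end and the same skipping reads had 25.3% and 37.9% in KCl and 86.3% and 76.0% in control, so the pair is 1 observation. Overlapping versions of this kind occur in other genes below as well.

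Other leading exons with a lower share in KCl lie in genes of several kinds. The 197-base exon of Map6 (chr7:99317472-99317668), which codes for a protein that stabilizes microtubules, had 39.8% and 85.9% in KCl and 97.0% and 97.9% in control. Its KCl libraries differed more from each other than KCl replicate 2 did from control, and the event as a whole was at 46.4 and 153 CPM in KCl and 315.6 and 442.6 CPM in control. The 86-base exon of Atp11b (chr3:35841030-35841115), a phospholipid flippase of internal membranes, had 6.38% and 14.3% in KCl and 60.6% and 58.3% in control, from 24 to 47 reads. The log2 odds ratio was -3.74 (SE 0.95, adjusted p = 0.145). The 50-base exon of Iqsec2 (chrX:152222283-152222332), an exchange factor for Arf proteins at the postsynaptic density, had 13.3% and 19.1% in KCl and 71.8% and 56.1% in control. The 32-base exon of Brsk2 (chr7:141987422-141987453), a kinase of neuronal polarity, had 45.5% and 66.0% in KCl and 95.7% and 93.1% in control. In both genes each control library was above each KCl library by more than the spread within a group. The 91-base exon of Magi3 (chr3:104016602-104016692), a scaffold protein of cell junctions, had 63.6% and 74.4% in KCl and 98.1% and 97.6% in control.

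Some of these exons differed by a few points only, with skipping reads rare in every library. The 151-base exon of Gabbr1 (chr17:37067214-37067364), which codes for a subunit of the GABA-B receptor, had 95.2% and 98.1% in KCl and 99.9% and 99.7% in control. This rested on 14 and 15 skipping reads in KCl and 2 and 5 in control. The 167-base exon of Clcn6, a chloride and proton exchanger of endosomes, had 4 and 3 skipping reads of 117 and 163 reads in KCl and none of 223 and 318 in control. An exon of 113 bases of Meg3, a long noncoding RNA in which the reading frame has no meaning, had 1 and 4 skipping reads of 87 and 382 in KCl and none of 672 and 1065 in control. Where a group had no skipping reads, no odds ratio is given, and the 0 of 1065 reads of Meg3 allows a share of skipping of up to 0.282%.

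Leading exons with a higher share in KCl likewise lie in genes of several kinds. The 77-base exon of Morf4l2 (chrX:136735546-136735622), a chromatin protein of histone acetyltransferase complexes, had 92.8% and 81.7% in KCl, from 871 and 1507 reads, and 48.1% and 51.6% in control, from 933 and 1461 reads. Both KCl libraries were above both control libraries in Morf4l2, as the rule that chose the leading exons required. The log2 odds ratio was 2.90 (SE 0.70, adjusted p = 0.125). The 59-base exon of Ptprs (chr17:56429099-56429157), a receptor phosphatase that organizes synapses, had 81.5% and 52.9% in KCl and 25.8% and 28.7% in control. The 91-base exon of Gpm6b (chrX:166385391-166385481), a proteolipid of neurons and oligodendrocytes, had 88.4% and 74.5% in KCl and 49.1% and 48.9% in control. In both genes KCl replicate 1 was farther from control than KCl replicate 2. The 152-base exon of Plpp1 (chr13:112851403-112851554), a phosphatase of lipid signals, had 91.5% and 89.7% in KCl and 59.5% and 57.4% in control, with little spread within either group.

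Further exons of this direction were closer to full inclusion. The 142-base exon of Itga3 (chr11:95046449-95046590), an integrin subunit that binds laminin, had 100% and 96.1% in KCl and 70.5% and 80.2% in control. The 89-base exon of Dlgap4 (chr2:156748332-156748420), a scaffold protein of the postsynaptic density, had 96.7% and 88.7% in KCl and 70.2% and 68.1% in control. The 154-base exon of Cyfip1 (chr7:55898238-55898391), a subunit of the WAVE complex that drives actin branching, had 93.9% and 98.9% in KCl and 84.9% and 75.2% in control. In these 3 genes no KCl library overlapped a control library, as the rule that chose them required. The 151-base exon of Rnf114, a ubiquitin ligase, had 97.8% and 95.5% in KCl and 82.2% and 86.8% in control. The 92-base exon of Maoa, which codes for the monoamine oxidase that breaks down serotonin and noradrenaline, had no skipping read among 84 and 82 reads in KCl and 9 and 10 among 65 and 70 in control. The KCl counts allow a share of skipping of up to 3.57% and 3.66%, and the control shares of inclusion were 86.2% and 85.7%. The 325-base exon of Srgap2, which codes for a GTPase-activating protein of neuronal migration, had no skipping read among 241 and 583 reads in KCl and 13 and 12 among 392 and 1006 in control.

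**Figure D4:**
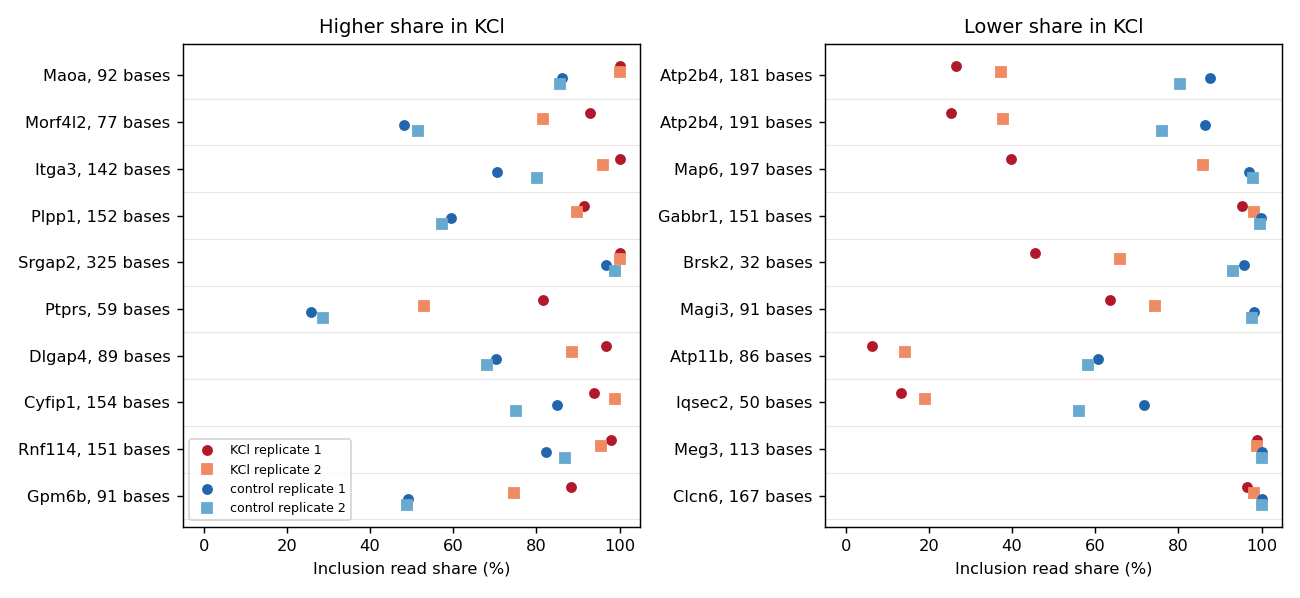
Inclusion read share in percent (x axis) of the 10 leading exons with a higher share in KCl, left panel, and with a lower share in KCl, right panel, with gene and exon length on the y axis and 1 mark per library. KCl marks (reds) and control marks (blues) do not overlap in any of the 20 exons by the rule that chose them, and KCl replicate 1 lies at 39.8% for Map6 where KCl replicate 2 lies at 85.9%.

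The depth of these leading exons, together with those below from the authors' tables, sets their precision. Over 30 exons and 4 libraries, the median half-width of the 95% Wilson interval of a share was 3.92 points and the largest 18.4 points, for counting error only. The adjusted p-values in turn reflect the spread between libraries, estimated for each event with information shared over all events. The common dispersion of the splicing fit was 0.0941, from 2 libraries in each group.

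The authors' deposited tables hold their own FDR for each event, from a comparison of 1 KCl with 1 control library of the same replicate number. Among the frame-shifting exons, 52 had an FDR under 0.05 in replicate 1 (1.28%, background 2.9%) and 24 in replicate 2 (0.590%, background 1.29%) of the authors' deposited tables. In both there were 21 (0.516%, background 1.03%), which is 40.4% of the list of replicate 1 and 87.5% of that of replicate 2. All 21 had the same direction in both, 12 with a higher share in KCl and 9 with a lower one, and they made up 17 distinct regions. Frame-preserving exons had 70 in both of the authors' deposited tables, which is 2.09% of them. All 21 exons had a mean share of 10 to 90% over the 4 libraries, and the difference of the group means was between 15.1 and 52.2 points. Both follow largely from the choice by FDR, since a difference of this size leaves little room for a mean share near either end.

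Several of the 21 were not among the leading exons above. The 113-base exon of Capzb (chr4:139288861-139288973), a subunit of the protein that caps actin filaments, had 81.1% and 70.6% in KCl, from 736 and 1467 reads, and 42.8% and 46.8% in control, from 615 and 1236 reads. Each KCl library was above each control library, by more than the spread within a group. The 127-base exon of Ctsa (chr2:164833724-164833850), a lysosomal protease, had 80.0% and 89.5% in KCl and 50.4% and 61.2% in control, and a 43-base version with the same end had almost the same reads. The 106-base exon of Mpzl1 (chr1:165601750-165601855), a membrane protein of the immunoglobulin family, had 43.5% and 52.5% in KCl and 22.0% and 24.1% in control. Both KCl libraries were above both control libraries in Mpzl1. A 398-base version of the Dlgap4 exon had 96.6% and 87.9% in KCl and 80.0% and 74.2% in control.

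The exons with a lower share in KCl by the same criterion, beside those of Atp2b4, Map6 and Iqsec2, were the following. The 67-base exon of Erc1 (chr6:119618846-119618912), a scaffold of the presynaptic active zone, had 15.4% and 37.5% in KCl, from 26 and 144 reads, and 68.5% and 75.2% in control, from 54 and 157 reads. The 109-base exon of Dnajc13 (chr9:104153268-104153376), a chaperone of endosomes, had 0 of 25 reads and 23.2% of 99 in KCl and 45.7% and 63.3% in control. The 0 of 25 reads allows a share of up to 12.0%, which is below both control shares. The 37-base exon of Add1 (chr5:34629136-34629172), an adducin that joins actin and spectrin, had 6.50% and 15.8% in KCl and 23.2% and 37.4% in control, with almost the same reads in a version of 34 bases. The 200-base exon of Fhl1 (chrX:56791239-56791438), a LIM domain protein, had 41.2% and 47.1% in KCl and 66.4% and 65.2% in control. For Add1 the gap between the groups was smaller than the spread within control, while for Fhl1 it was larger than the spread within both groups.

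**Figure D5:**
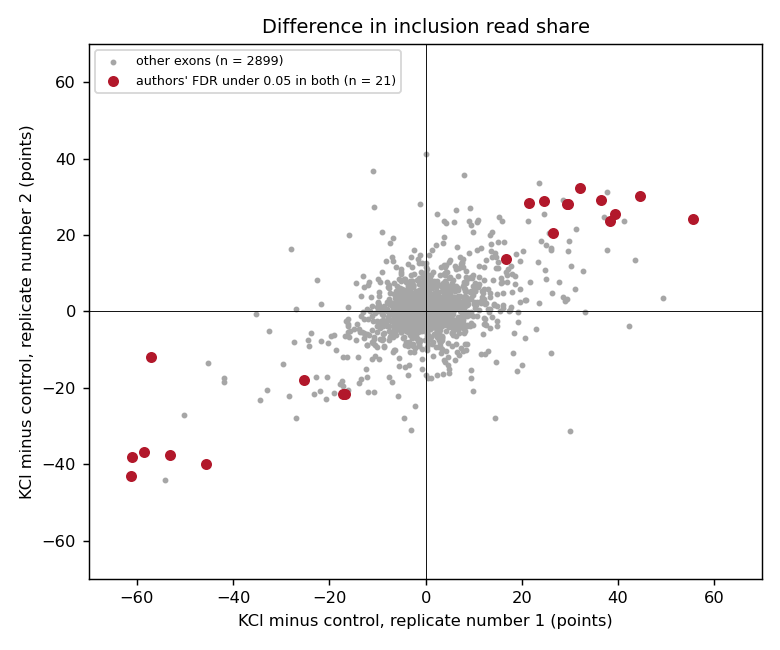
Difference in inclusion read share, KCl minus control, in points for the libraries with replicate number 1 (x axis) and 2 (y axis), with 1 mark for each of the 2920 frame-shifting exons with at least 20 reads in each library. The 21 exons with an FDR under 0.05 in both of the authors' deposited tables, in red, lie in the upper right (12) and the lower left (9), and most other exons lie near 0.

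Exons of genes for splicing factors were given by role, since frame-shifting exons in them are known for autoregulation. SR proteins bind exons and promote their use. The 79-base exon of Srsf9 (chr5:115331461-115331539) had 1.33% and 2.76% in KCl, from 376 and 254 reads, and 8.04% and 7.87% in control, from 224 and 254 reads. Both KCl libraries were below both control libraries, with a log2 odds ratio of -2.11 (SE 0.75, adjusted p = 0.360). The 268-base exon of Srsf6 had 70.8% and 55.6% in KCl and 55.4% and 55.5% in control, so that KCl replicate 1 alone stood apart. The 104-base exon of Srsf2 had 3.26% and 4.40% in KCl and 4.64% and 3.03% in control, with overlapping groups. The 187-base exon of Srsf1 had 100% and 99.7% in KCl and 98.9% and 99.5% in control. The 64-base exon of Srsf11 had 61.5% and 67.7% in KCl and 68.0% and 79.3% in control. Of the SR and Tra2 list, 5 exons were tested and 1, that of Srsf9, had an unadjusted p under 0.05. Over all events 9.2% had such a p, and 5 exons are too few to compare with this percentage.

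In the exons of a kinase and of repressors that act on splicing, the KCl and control libraries overlapped. Clk1 phosphorylates SR proteins, and its 91-base exon (chr1:58420121-58420211) had 75.0% and 81.4% in KCl and 68.8% and 94.3% in control, from 16 to 43 reads, with the KCl libraries between the control libraries. Its 167-base exon had 98.3% and 99.5% in KCl and 100% and 99.4% in control. Ptbp1 and Ptbp2 are repressors of neuronal exons, and Ptbp2 is the form of neurons. The 34-base exon of Ptbp1 (chr10:79862014-79862047) was kept in 98.1% and 99.5% of reads in KCl and 100% and 99.2% in control, and had too few skipping reads for the test. The 34-base exon of Ptbp2 (chr3:119724612-119724645) had 86.7% and 78.0% in KCl and 45 of 50 reads and 76.8% in control, a log2 odds ratio of -0.17 (SE 0.88, adjusted p = 0.989). Its replicates with the same number were closer to each other than the libraries of a group were.

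Among other RNA-binding proteins, the spliceosome and kinase list had 32 tested exons, of which 1 had an unadjusted p under 0.05, with a median log2 odds ratio of -0.21. That exon, of 71 bases in Luc7l, a U1 snRNP-associated protein, had 50.8% and 54.0% in KCl and 19.7% and 32.4% in control. A 71-base exon of its relative Luc7l2 had 3.57% and 10.0% in KCl and 14.3% and 31.0% in control, from 20 to 29 reads. The directions of the 2 genes were opposite. The list of hnRNP proteins had 14 tested exons and 1 at an unadjusted p under 0.05, a 130-base exon of Taf15 with no skipping read in KCl and 4 and 1 in control, and a median of 0.54. Neuronal splicing regulators had 21 tested exons and 1 such exon, of 88 bases in Rbm10, with no skipping read in KCl and 2 in each control library, and a median of 0.15. A 95-base exon of Mbnl2, a regulator of developmental splicing, had 58.3% and 66.5% in KCl and 78.6% and 74.8% in control. Factors of nonsense-mediated decay and of the exon junction complex had 7 tested exons and 0 with an unadjusted p under 0.05, with a median of -0.48. These shares of each list stand beside the 9.2% and the median of 0.04 of all events.

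The lists of synaptic and cytoskeletal genes are given by their counts at an unadjusted p under 0.05, beside 9.2% of all events. They hold few exons, were drawn up with earlier results of these data known, and their difference from all events was not tested. Synaptic adhesion and guidance had 15 tested exons, 4 higher and 2 lower in KCl (40.0%), which are 5 distinct regions, with a median log2 odds ratio of 1.76. The 205-base exon of Nfasc, which codes for a cell adhesion protein of nodes and initial segments of axons, had 41.7% and 33.8% in KCl and 11.9% and 15.3% in control. The 793-base exon of Agrn, which codes for agrin, an organizer of synapses, had 8.97% and 27.1% in KCl and 32.2% and 48.8% in control. Nfasc was higher and Agrn lower in both KCl libraries than in both control libraries. Vesicle release and membrane traffic had 16 tested exons, 2 higher and 3 lower (31.2%), in 5 regions, with a median of -0.12. The 103-base exon of Snap91, a clathrin assembly protein of synapses, had 86.3% and 97.0% in KCl and 99.0% and 98.9% in control. Cytoskeleton and motors had 30 tested exons, 2 higher and 3 lower (16.7%), with a median of -0.25, and the 3 lower are Map6 and both versions of the Add1 exon, so 2 regions.

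For postsynaptic genes and ion channels the level of the event, which is the sum of both forms, is given along with the shares. No exon passed edgeR's test of levels without a replicate block, and the result with the block is given below. Glutamate receptors and postsynaptic scaffolds had 16 tested exons, 2 higher and 2 lower at an unadjusted p under 0.05 (25.0%, in 3 regions, beside 9.2% of all events), with a median log2 odds ratio of -0.20. The fitted level was below control for 23 of 25 exons (92.0%, beside 48.9% of all events). Of the 25, 11 had an unadjusted p under 0.05 for level (44.0%, beside 10.9% of all events). The 110-base exon of Dlg4 (chr11:70043658-70043767), which codes for PSD-95, the main scaffold of the postsynaptic density, had 92.6% and 92.7% in KCl, from 188 and 452 reads, and 98.8% and 97.7% in control, from 724 and 1084 reads. Both KCl libraries had the lower share, with a log2 odds ratio of -2.15 (SE 0.72, adjusted p = 0.307). The level of this event was 84.8 and 174 CPM in KCl and 345.7 and 382.9 CPM in control. Ion channels and pumps had 25 tested exons, 1 higher and 4 lower at the same p, with a median of -0.66, and the 4 lower are 3 regions since both versions of the Atp2b4 exon are among them. The fitted level was below control for 33 of 34 (97.1%, beside 48.9% of all events). Of the 34, 10 had an unadjusted p under 0.05 for level (29.4%, beside 10.9%). The neuron markers were lower in the same libraries, and their part in these values was not tested.

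The lists of chromatin, activity and translation genes are likewise set beside the 9.2% of all events. H3K9 methylation and HP1 genes had 17 tested exons and 2 (11.8%) at an unadjusted p under 0.05, both lower in KCl, with a median log2 odds ratio of -0.20. They are overlapping versions of 64 and 67 bases of 1 exon of Ehmt1, an H3K9 methyltransferase, and the 64-base version had 3 skipping reads of 32 and of 42 reads in KCl and none of 29 and 41 in control. A 70-base exon of Atrx, a chromatin remodeller, had 0 of 4 and 6 of 26 inclusion reads in KCl and 1 of 16 and 0 of 38 in control. Activity-regulated genes had 12 tested exons and none such, with a median of -0.41. In Crtc2, a coactivator of CREB, the 67-base exon had 8 of 37 and 10 of 40 inclusion reads in KCl and 12 of 24 and 17 of 36 in control, and the 407-base exon had 96.1% and 93.7% in KCl and 88.2% and 85.9% in control. The groups did not overlap in either exon, and the adjusted p-values were 0.581 and 0.542. Ribosomal proteins and translation factors had 15 tested exons and 1 such exon (6.67%), of 140 bases in Eif4a2, a helicase of translation initiation, with a median of -0.48. Its shares were 89.6% and 91.2% in KCl, from 1409 and 1616 reads, and 97.2% and 96.2% in control, from 2427 and 2162 reads.

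Exons in marker genes were few, too few to compare with the 9.2% of all events at an unadjusted p under 0.05 for splicing. Neuron markers held 4 frame-shifting exons, and the 80-base exon of Gad1, which codes for an enzyme of GABA synthesis, had 12.8% and 39.3% in KCl and 3.54% and 12.3% in control. It was the 1 of 3 tested with an unadjusted p under 0.05. An 80-base exon of Syt1, a calcium sensor of vesicle release, had 2.86% and 1.61% in KCl and 5.87% and 6.50% in control. Astrocyte markers held 3 exons, and the 71-base exon of the glutamate transporter gene Slc1a2, with 0.533% and 1.14% in KCl and 2.95% and 2.80% in control, was the 1 of 3 tested with an unadjusted p under 0.05. The other 2 were in Gfap and Aldoc, where shares were over 99.1% in every library. Oligodendrocyte, vascular and mesenchymal, and progenitor markers held 1, 2 and 1 exons, with 1 tested in each list and none at an unadjusted p under 0.05, and microglia markers held none.

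The level of an event was tested apart from its splicing. Without a replicate block, none of the 4069 exons passed edgeR's quasi-likelihood test of levels. The background was 0.0% and the smallest adjusted p was 0.410. At an unadjusted p under 0.05 there were 464, or 11.4% of them against a background of 10.9%. Of these, 177 were higher in KCl (4.35%, background 4.07%) and 287 lower (7.05%, background 6.85%). DESeq2 called 24 of the exons at an adjusted p under 0.05, where 0.627% of all events were called. With the replicate block, edgeR called 462 of the exons, where 11.2% of all events were called. Levels of same-numbered libraries deviated together (correlation of 0.652 over 11033 events), though the labels give them no shared source. The result for levels thus depends on the block. Of the 297 exons with an unadjusted p under 0.05 for splicing, 31 also had one for level, which is 10.4%, with 9 higher and 22 lower. In Map6, whose event had 46.4 and 153 CPM in KCl and 315.6 and 442.6 CPM in control, the level and the share were both lower in KCl. Morf4l2 was chosen among exons whose shares do not overlap. Its level was 393 and 579 CPM in KCl and 445 and 516 CPM in control, with overlapping groups. The level of the Ptprs event, with 275 and 299 CPM in KCl and 229.2 and 354 CPM in control, likewise overlapped.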

How the data were processed

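For 4 RNA libraries the authors deposited raw counts of reads with and without the exon of each event, per the file headers. P-values and FDRs in the same deposited tables are the authors' own, for 1 KCl and 1 control library with the same replicate number. CASAVA 1.7, BWA 0.7.12, MACS2 and TopHat2 are named in the submitters' processing notes without their roles. The event counter, its annotation and the use of strand are not given in the sources here, so reads of overlapping antisense genes cannot be told apart. Starts were converted to count from 1, in mm10. The control table of replicate 1 held 2 further count columns, of another library, that were not used. Gene symbols came from a separate table of gene IDs and symbols for the 4065 of 4069 members whose ID it held, and otherwise from the files.

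The quasi-likelihood test of edgeR 4.0.16, in R 4.3.3, was used for splicing, on the counts of both forms of the 10079 events that averaged 1 or more reads in both forms. Its terms were the library, the form and the interaction of form and KCl. Levels were tested on the sum of both forms over 11804 events, with TMM scaling (a trimmed mean of log ratios), an intercept and KCl. Adjustment was by Benjamini-Hochberg over all events, with a threshold of 0.05. DESeq2 1.42.0, limma 3.58.1 with voom, a replicate block, other filters, another scaling and leaving out each library were alternatives. Tested on simulated data with 200 changed events among 10079 and a dispersion of 0.09, the splicing fit recovered 27% of changes of 3 and 0% of changes of 1.5 on the log2 odds scale. Standard errors (SE) were derived from the F statistic of the fit. Python 3.11.15, pandas 2.3.3, numpy 2.4.6, scipy 1.17.1 and matplotlib 3.10.9 were used for the rest.

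The members and the 19 gene lists were chosen with earlier results of these data known. The exons named are, in each direction, the 10 of smallest unadjusted p among those with at least 20 reads in each library and groups that do not overlap, up to 10 per direction with an FDR under 0.05 in both of the authors' deposited tables, up to 3 per list, and all in Ptbp1, Ptbp2, Dlg4, Clk1, Tra2 and Srsf genes. The design had foreseen a class of reading frame and stop codon for each exon from reference transcripts, and sequences of named exons. Reference transcripts were not used here, so neither was made, and where an exon lies in the coding sequence or a UTR was not analysed. The H3K9me3 libraries of hippocampus were not used here. An item that the rule names is not reported here.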

Additional observations from a re-analysis of the deposited data

How the results depend on the processing

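With 2 libraries in each group, a p that misses the threshold does not show that an exon did not differ. Few skipping reads limit exons near full inclusion.

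The labels give KCl and control the same replicate numbers but no shared source. Deviations of same-numbered libraries from the group means correlated at 0.652 for log2 levels over 11033 events and at 0.0269 for log2 odds of inclusion over 9813 events, with only 2 pairs. With the replicate block, 25 frame-shifting exons passed for splicing (13 higher in KCl, 23 regions, background 1.66%) and 462 for level (background 11.2%), with 1202 at an unadjusted p under 0.05 for level. DESeq2 gave 170 exons at an unadjusted p under 0.05 for splicing and called 24 for level (background 0.627%), and a mean of at least 10 reads of each form gave 89 of 510 tested. Leaving out 1 library gave 130 to 194 exons at an unadjusted p under 0.05 for splicing and 0 calls. For level it gave 0 to 144 calls, with 144 without KCl replicate 2, 27 without control replicate 2, 1 without control replicate 1 and 0 without KCl replicate 1, and 171 to 600 exons at an unadjusted p under 0.05. Among exons at an unadjusted p under 0.05 for level, the percentage higher in KCl was 38.2% with all libraries, 47.3% with the replicate block and 30.7 to 48.4% with a library left out. For splicing that percentage was 59.3%, and 52.8 to 62.6% over the alternatives. Counting 1 exon per overlapping group (283) and exons with 20 reads in each library (247) were alternatives chosen after seeing the data. At least 1 read in each library gave median shares of 96.9% in KCl and 96.5% in control, and at least 50 gave 99.0% and 98.9%.

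Of 619 log2 odds ratios of 74 named exons under alternatives, 585 kept their direction and side of the threshold, 23 passed it with the block, and 11 in 6 exons reversed, none of them a leading exon. Leading exons were chosen for groups that do not overlap, so leaving out 1 library could hardly reverse them. Aldoc had -0.030 with limma and -1.47 to 0.87 with 1 library left out, reversing without KCl replicate 1 (-0.53) and control replicate 2. The 91-base exon of Clk1 had -2.06 to 0.77, reversing without control replicate 2, and Gfap -2.85 to 0.60, reversing without KCl replicate 2 (0.18) and control replicate 2. Ptbp2 had -1.01 to 0.41, reversing without KCl replicate 2 (0.38) and control replicate 1. Rbfox3 had -3.23 to 1.66, reversing without KCl replicate 2, and Srsf2 -0.30 to 0.33, reversing without KCl replicate 2 (-0.21) and control replicate 2. The cause of these changes was not tested.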
